A study of Homo sapiens and Mus musculus with 8 samples.

Results

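The genes of the unfolded protein response and the integrated stress response were followed in OVCAR-8 cells, an established human ovarian cancer line, after CRISPR editing of ATG9A. The set holds 41 genes, given by symbol and found in a table of 58381 gene identifiers. They were sorted by role into sensors (4 genes), chaperones of the endoplasmic reticulum (ER; 13), ER-associated degradation, or ERAD (6), stress transcription factors (5), effectors of the integrated stress response (5) and enzymes of amino acid and one-carbon metabolism (8). The ATG9A KO group (sgATG9A) and the control group (sgGAL4) had 2 libraries each, labelled as biological replicates, from cells that each carried a lentiviral CRISPR vector with 1 guide. The guide sgGAL4 targets a yeast gene with no human counterpart, and both groups carried the vector. With 1 guide per group, loss of ATG9A and other effects of that guide cannot be told apart. Nothing in the labels says when the replicate cultures were split, so the p-values measure the spread between these libraries.

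Proteins that misfold in the ER set off the unfolded protein response through 3 sensors in its membrane. IRE1 (gene ERN1) splices the mRNA of XBP1 and ATF6 is cut into a transcription factor, and together these raise chaperones and the ERAD machinery, which returns misfolded proteins to the cytosol for destruction. PERK (gene EIF2AK3) phosphorylates the initiation factor eIF2, as kinases outside the ER do in amino acid shortage, viral infection or heme loss, and this integrated stress response favours translation of ATF4, whose targets make serine, asparagine and one-carbon units. Much of this regulation is in splicing, cleavage and phosphorylation. Counts per gene show none of these steps, and the levels below are of total mRNA of each gene.

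ATG9A mRNA (chromosome 2 of GRCh38, 219219380 to 219229717) was at 20.4 and 18.4 CPM (counts of the gene divided by the TMM-scaled library total, times 1000000) in the sgGAL4 libraries and at 12.8 and 11.5 CPM in the sgATG9A libraries. It was lower in both edited libraries, and an edit that shifts the reading frame need not remove the mRNA. Library totals were 22200998 to 22969233 counts, and the mitochondrial share was 3.72 and 4.39% in the sgGAL4 and 3.999 and 4.21% in the sgATG9A libraries. Of 10 epithelial and ovarian carcinoma markers 8 were tested, of which PAX8 was higher and KRT7, KRT8, KRT18 and EPHA2 lower in sgATG9A cells. The summed level of these markers was 3919 to 4050 CPM in the sgGAL4 and 2509 to 2515 CPM in the sgATG9A libraries, KRT19 was at 0 in each library and MUC16 at 0 in 3 of 4, and the part of this shift in the results below was not tested. A summed level of 1.72 to 2.07 CPM was found for 10 macrophage and leukocyte markers, with PTPRC, TYROBP and CD163 at 0. Of the 3 tested, CD14 was lower in edgeR, with 23 and 20 counts in the sgGAL4 and 6 and 1 in the sgATG9A libraries. ITGAM was higher, with 5 and 9 and with 19 and 28 counts, and DESeq2 called neither. Of 10 cell cycle genes, CDK1 and TOP2A were lower and none was higher in edgeR, in DESeq2 or at an unadjusted p under 0.05. In bulk RNA, fewer cells that express a gene and less of its RNA per cell cannot be told apart.

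In sgATG9A cells, 1 or more genes of every role of the stress response were higher, most of them by small amounts. Of the 41 genes, 21 were higher in sgATG9A cells at an adjusted p under 0.05 in edgeR (51.2%), where 8.93% of all 16141 genes tested were higher. The 41 genes were chosen with earlier results of these data known, so these shares are described and not tested. One gene, CREB3L2, was lower, where 7.42% of all genes were, and 19 did not pass the test. All 41 genes passed the filter on low counts. The members were mostly well expressed, and among genes with a mean log2 CPM above 3 the shares were 19 of 36 members and 11.9% of all genes. DESeq2 called 17 of these 21 higher, without MANF, SEL1L, ATF3 and ALDH1L2, and CREB3L2 lower. The increases of the 21 genes ran from 9.27 to 71.0%, with a median of 22.9%, and 16 of them had a log2 fold change under 0.4. The median log2 fold change was 0.17 over the 41 genes and 0.00 over all genes tested, whose middle 50% lay between -0.15 and 0.13. In 33 members both sgATG9A libraries lay above both sgGAL4 libraries (27.8% of all genes did), and in 1 both lay below (27.5%).

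**Figure D1:**
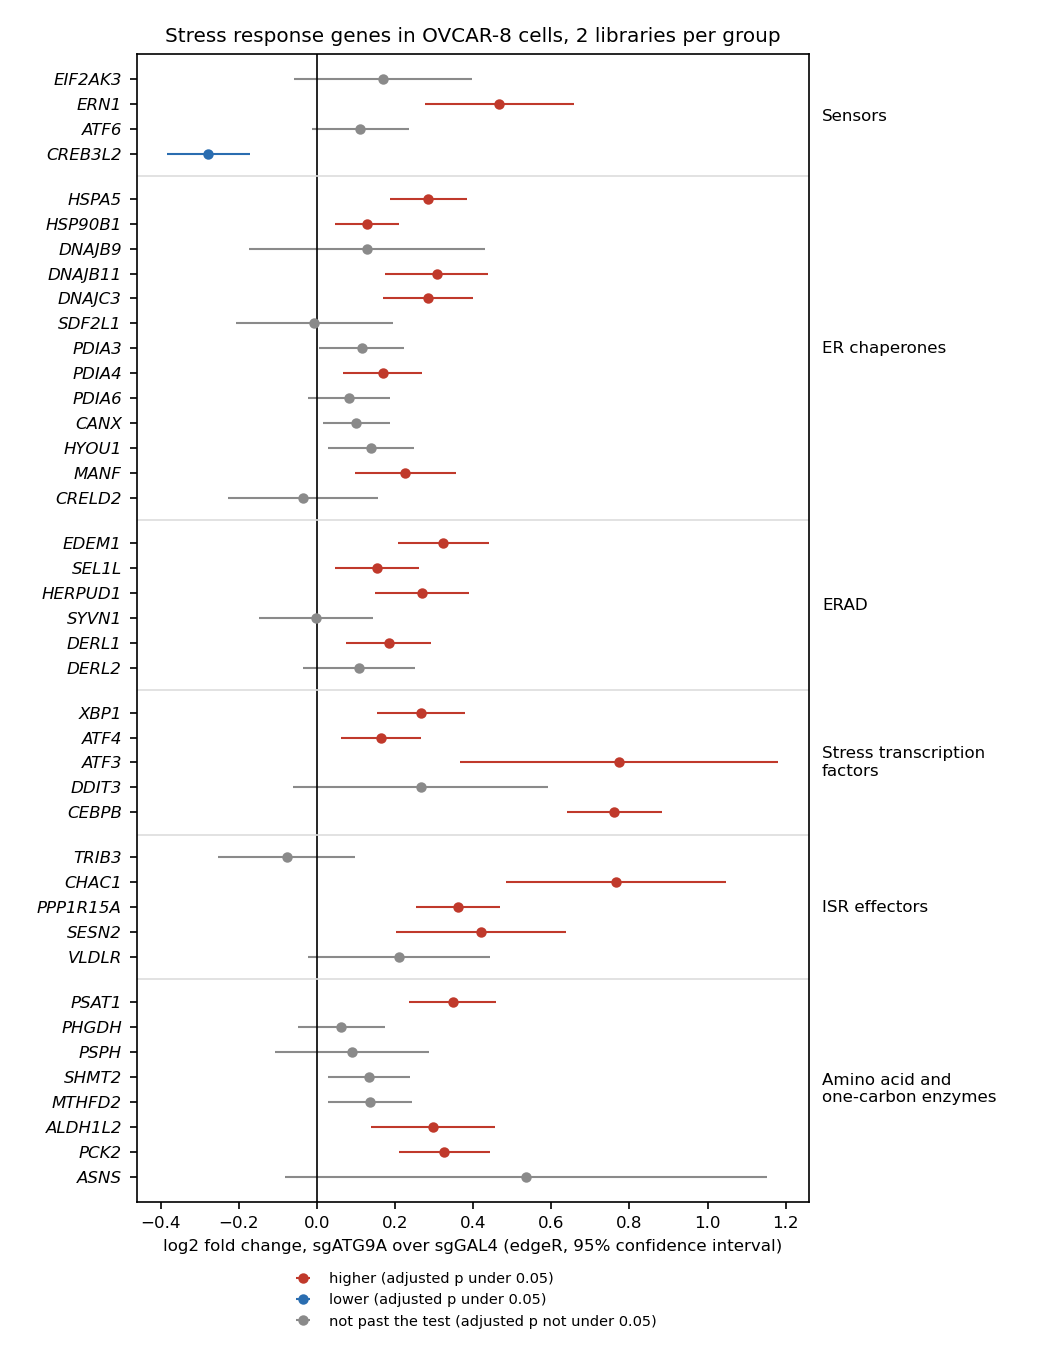
Log2 fold change, sgATG9A over sgGAL4, of the 41 stress response genes with 95% confidence intervals from edgeR, in red where higher and in blue where lower at an adjusted p under 0.05, with genes ordered by role. The 21 red points lie between 0.13 and 0.77, CREB3L2 lies at -0.28, and no point passes 1.

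None of the 41 genes passed the adjusted p limit of 0.05 together with a log2 fold change beyond 1 in either direction, in edgeR or in DESeq2, although 26 were higher and 1 lower at an unadjusted p under 0.05. Among all genes, 1.28% were higher and 0.644% lower at both limits. Without sgGAL4 replicate 1, 1 member passed them, ASNS, described with the amino acid enzymes.

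Both branches lay higher in sgATG9A cells. In chaperones and ERAD together 10 of 19 genes were higher (median log2 fold change 0.14), and in the amino acid and one-carbon enzymes 3 of 8 (median 0.22). Of all genes tested, 8.93% were higher. Levels were then set against each gene's own mean log2 CPM over the 4 libraries. The median chaperone or ERAD gene lay at -0.09 and -0.07 in the sgGAL4 and at 0.07 and 0.07 in the sgATG9A libraries. The median amino acid or one-carbon gene lay at -0.08 and -0.10 and at 0.07 and 0.13. In each branch the libraries of the groups were apart. The difference between the branches, metabolic minus chaperone and ERAD, was 0.00 and -0.02 for sgGAL4 and -0.01 and 0.06 for sgATG9A. For these lists the groups overlapped in this difference, and no test between the branches was made. With the effectors of the integrated stress response added to the enzymes, 13 genes, the median log2 fold change was 0.30. The median gene of these 13 lay at -0.09 and -0.13 in the sgGAL4 and at 0.10 and 0.12 in the sgATG9A libraries. It lay above the median chaperone or ERAD gene in both sgATG9A libraries and below it in sgGAL4 replicate 2. In sgGAL4 replicate 1 both lay at -0.09. With these 13 genes the groups did not overlap in the difference between the branches, so that the comparison depends on the list chosen. No test between these sets was made. Counts of chaperones and ERAD genes called higher fell to 5 without sgATG9A replicate 1 and to 6 without sgATG9A replicate 2, and the metabolic count was 2 without sgGAL4 replicate 2 or sgATG9A replicate 2.

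Promoter sequence gives a view of these genes that the expression values did not enter. Members and motifs were both chosen for this response, so matches among the members are described and not taken as support. Factors of the response bind known elements. ATF6 with its partner NF-Y binds ERSE (CCAAT, 9 bases of any kind, then CCACG) and ERSE-II (ATTGG, 1 base of any kind, then CCACG), XBP1 and ATF6 the UPRE core TGACGTGG, ATF4 with C/EBP proteins TGATGNAA, and CREB family factors the CRE TGACGTCA. Exact matches on both strands were sought in RefSeq windows on GRCh38.p14, 250 bases before to 50 after the transcription start, which 36 of the 41 genes matched by symbol. PDIA3, DERL1, PSPH, SHMT2 and ALDH1L2 were not matched. ERSE was found in 6 members, HSPA5, HSP90B1, PDIA6, CANX, CRELD2 and XBP1, and in 0.0916% of all 27305 genes with a window. ERSE-II was found in SDF2L1, HYOU1 and HERPUD1 and in 0.0696% of all genes, and the UPRE core in HYOU1, where it overlaps an ERSE-II, and in 0.927%. The ATF4 element was found in CREB3L2, HERPUD1, ATF3, CHAC1 and ASNS and in 4.46% of all genes. CRE was found in CREB3L2 and PPP1R15A and in 2.25%. Of the 9 members with ERSE or ERSE-II, 8 are chaperone or ERAD genes and the other is XBP1. A match is a description of letters and not of a bound site.

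Of the 9 members with ERSE or ERSE-II, 4 were higher (HSPA5, HSP90B1, HERPUD1 and XBP1) and 5 did not pass the test, with a median log2 fold change of 0.13. Of the 27 matched members with neither, 15 were higher and 1 lower, with a median of 0.23. Of the 5 with the ATF4 element, 3 were higher (HERPUD1, ATF3 and CHAC1), 1 was lower (CREB3L2) and ASNS did not pass the test. Beside these counts, 8.93% of all genes tested were higher and 7.42% lower. No test was made between these sets.

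**Figure D2:**
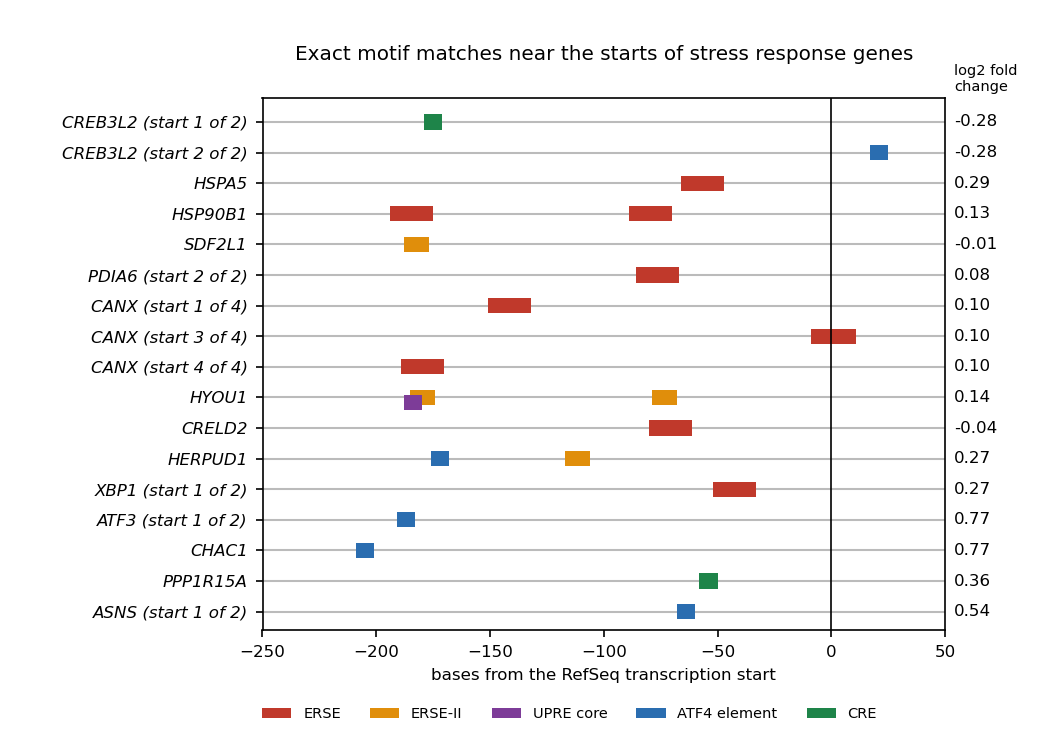
Position of exact motif matches in bases from the RefSeq transcription start, by gene and, where RefSeq gives several starts, by start in the order listed, with the log2 fold change of the gene, sgATG9A over sgGAL4, at the right. The ERSE and ERSE-II matches belong to genes with log2 fold changes from -0.04 to 0.29, and the ATF4 elements to genes from -0.28 to 0.77.

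Of the 3 classical ER stress sensors, the gene of IRE1 rose and those of PERK and ATF6 did not pass the test. ERN1 (ENSG00000178607.15, chromosome 17, 64039142 to 64130819) was at 16.8 and 17.0 CPM in the sgGAL4 libraries and at 22.1 and 24.7 CPM in the sgATG9A libraries. Both sgATG9A libraries lay above both controls, and the increase was 38.2% (log2 fold change 0.47, SE, the standard error, 0.09, adjusted p = 0.000873 from edgeR). EIF2AK3 was at 11.5 and 12.8 CPM in the sgGAL4 and at 12.9 and 14.4 CPM in the sgATG9A libraries, where the highest control and the lowest edited library nearly touched (log2 fold change 0.17, 95% interval -0.06 to 0.40, adjusted p = 0.337 from edgeR). ATF6 was at 57.8 and 56.9 CPM and at 59.5 and 64.3 CPM, with a spread between the sgATG9A libraries wider than their gap to the controls (log2 fold change 0.11, 95% interval -0.01 to 0.24, adjusted p = 0.231 from edgeR). The intervals allow increases of up to 31.7% for EIF2AK3 and 17.7% for ATF6. In EIF2AK3, 15.1% of exonic bases are shared with other annotated genes, and reads that overlapped both were left out of the counts.

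CREB3L2, which encodes a membrane-bound transcription factor of the ER that is cut like ATF6 and drives genes of the secretory pathway, was the one member that fell. It was at 136.5 and 134.7 CPM in the sgGAL4 libraries and at 108.6 and 115.04 CPM in the sgATG9A libraries, below both controls in each. It fell by 0.28 on the log2 scale (SE 0.05, adjusted p = 0.0004 from edgeR) and passed in each of the 10 alternatives tried.

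Of the 13 ER chaperones and their partners, 6 rose (46.2%, beside 8.93% of all genes tested) and 7 did not pass the test. HSPA5 (ENSG00000044574.7, chromosome 9, 125234853 to 125241330), which encodes BiP, the main Hsp70 of the ER and the brake on all 3 sensors, was at 753 and 828 CPM in the sgGAL4 libraries and at 956 and 972 CPM in the sgATG9A libraries. The groups were apart by more than either pair of replicates, and the increase was 21.9% (log2 fold change 0.29, SE 0.05, adjusted p = 0.000129 from edgeR). The stretches printed here hold the ERSE or ERSE-II, in capitals, of a chaperone gene that rose and of 2 that did not pass. The elements of CRELD2 and SDF2L1 lie on the opposite strand, so their capitals are the reverse complement of the motif. No base of the stretches lies in an exon of the gene in GENCODE v29. HSPA5 is shown from -96 to -18 of its start (chr9:125241361-125241439, minus strand), CRELD2 from -110 to -32 (chr22:49918524-49918602, plus strand) and SDF2L1 from -218 to -148 (chr22:21642084-21642154, plus strand).
HSPA5: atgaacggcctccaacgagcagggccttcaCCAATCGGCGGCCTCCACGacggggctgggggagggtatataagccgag
CRELD2: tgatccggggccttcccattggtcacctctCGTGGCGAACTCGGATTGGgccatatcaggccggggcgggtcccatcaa
SDF2L1: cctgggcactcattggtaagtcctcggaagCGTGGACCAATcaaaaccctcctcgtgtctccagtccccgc

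Co-chaperones of BiP were among the genes that rose. DNAJB11 (ERdj3, which hands unfolded clients to BiP) was at 43.2 and 43.4 CPM in the sgGAL4 and at 55.5 and 51.5 CPM in the sgATG9A libraries. DNAJC3 (p58IPK, a co-chaperone that also restrains eIF2 kinases) was at 70.7 and 74.6 CPM and at 85.6 and 91.4 CPM. In each gene both sgATG9A libraries lay above the controls, with increases of 23.7% and 21.8% (adjusted p = 0.00151 and adjusted p = 0.000831 from edgeR). Of the exonic bases of DNAJB11, 23.2% overlap another gene. MANF, a small ER protein that stabilises BiP with its clients and is secreted under stress, was at 46.4 and 49.5 CPM and at 57.1 and 55.02 CPM, higher in both edited libraries (log2 fold change 0.23, adjusted p = 0.0137 from edgeR). Its adjusted p was 0.140 without sgGAL4 replicate 1 and 0.101 without sgATG9A replicate 1.

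HSP90B1, which encodes GRP94, the Hsp90 of the ER, and PDIA4, a disulfide isomerase, rose by less. HSP90B1 was at 1261 and 1244 CPM in the sgGAL4 and at 1366 and 1372 CPM in the sgATG9A libraries, an increase of 9.27% (log2 fold change 0.13, SE 0.04, adjusted p = 0.0298 from edgeR). PDIA4 was at 319 and 312 CPM and at 359 and 350.3 CPM, an increase of 12.4% (log2 fold change 0.17, SE 0.05, adjusted p = 0.0199 from edgeR). The replicates of each gene lay close together and the groups did not overlap. Each call was lost when some single libraries were left out and kept when others were. The adjusted p of HSP90B1 was 0.196 and 0.291 without sgATG9A replicates 1 and 2, and that of PDIA4 was 0.0615 without sgGAL4 replicate 2 and 0.202 and 0.0988 without sgATG9A replicates 1 and 2.

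The 7 chaperone genes that did not pass had log2 fold changes from -0.04 to 0.14. In 4 of them, PDIA3 and PDIA6 (disulfide isomerases), CANX (calnexin, a lectin chaperone of glycoproteins) and HYOU1 (GRP170, a nucleotide exchange factor of BiP), both sgATG9A libraries lay above both controls, with adjusted p from 0.0822 to 0.311. The same held for 27.8% of all genes tested. PDIA3 had an adjusted p of 0.0175 and CANX of 0.0258 without sgGAL4 replicate 2. With the replicate number as a block, PDIA3 and HYOU1 passed (adjusted p = 0.0416 and adjusted p = 0.0240 from edgeR). In the other 3 the groups overlapped. These were SDF2L1, a partner of DNAJB11, at 20.1 and 22.0 CPM in the sgGAL4 and 22.7 and 19.2 CPM in the sgATG9A libraries, CRELD2, a secreted ER stress protein, at 19.4 and 20.4 CPM and 20.4 and 18.4 CPM, and DNAJB9 (ERdj4, which turns IRE1 off), at 6.16 and 8.18 CPM and 7.95 and 7.73 CPM. For CRELD2 and SDF2L1 the 95% intervals of the log2 fold change were -0.23 to 0.16 and -0.21 to 0.19. Both hold an exact ERSE or ERSE-II, printed above, and their upper limits lie below the estimate of 0.29 for HSPA5. No test of these genes against each other was made.

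**Figure D3:**
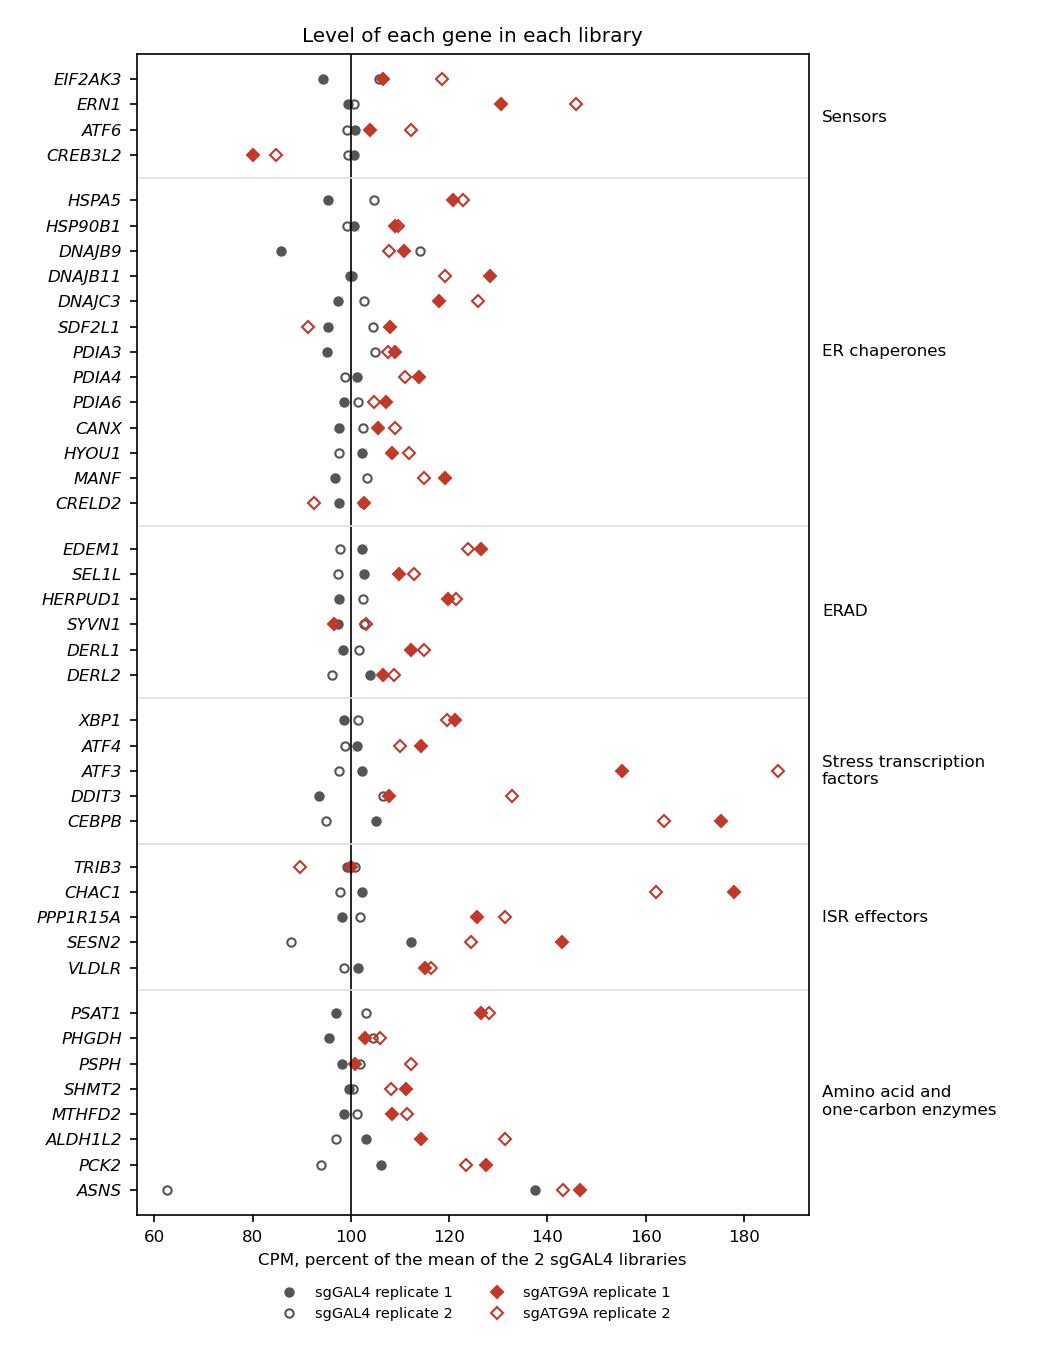
Level of each of the 41 genes in each library, in percent of the gene's mean CPM in the 2 sgGAL4 libraries, with circles for sgGAL4, diamonds for sgATG9A, filled for replicate 1 and open for replicate 2. The edited libraries of CEBPB, ATF3 and CHAC1 stand farthest to the right and those of CREB3L2 farthest to the left, 1 control library of ASNS lies farther left still, and in DNAJB9, SDF2L1, CRELD2, SYVN1, TRIB3, PHGDH and PSPH the groups overlap.

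In ERAD, 4 of 6 genes rose (66.7%, beside 8.93% of all genes tested). EDEM1 (ENSG00000134109.10, chromosome 3, 5187646 to 5219957), a mannosidase-like protein that marks misfolded glycoproteins for disposal, was at 61.6 and 58.9 CPM in the sgGAL4 and at 76.2 and 74.5 CPM in the sgATG9A libraries. HERPUD1, a membrane protein that organises the HRD1 ubiquitin ligase complex, was at 54.6 and 57.4 CPM and at 67.01 and 67.9 CPM. Both genes were higher in each edited library than in either control, by 25.1% for EDEM1 (log2 fold change 0.32, SE 0.06, adjusted p = 0.000227 from edgeR) and by 20.5% for HERPUD1 (log2 fold change 0.27, SE 0.06, adjusted p = 0.00193 from edgeR). HERPUD1 is the one member with both an ERSE-II and an ATF4 element, printed in capitals, the ATF4 element first and on the opposite strand, from -206 to -77 of its start (chr16:56931936-56932065, plus strand), with 18 of 130 bases in an exon of a GENCODE transcript.
HERPUD1: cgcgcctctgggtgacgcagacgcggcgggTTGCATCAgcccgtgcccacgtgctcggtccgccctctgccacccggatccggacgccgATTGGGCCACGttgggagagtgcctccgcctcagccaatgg

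DERL1, a channel protein of the retrotranslocation complex, was at 148 and 153 CPM in the sgGAL4 and at 169 and 174 CPM in the sgATG9A libraries (log2 fold change 0.18, adjusted p = 0.0177 from edgeR). SEL1L, the adaptor of the HRD1 ligase, was at 92.4 and 87.7 CPM and at 98.8 and 102 CPM (log2 fold change 0.15, adjusted p = 0.0455 from edgeR). The groups did not overlap in either gene. Without single libraries these calls were lost, with an adjusted p for DERL1 of 0.107, 0.0563 and 0.108 without sgGAL4 replicate 1, sgATG9A replicate 1 and sgATG9A replicate 2. For SEL1L the adjusted p was 0.0757 to 0.255 over all 4 omissions. SYVN1, which encodes the ligase HRD1 itself, was at 37.03 and 39.0 CPM and at 36.7 and 39.2 CPM, with overlapping groups and a log2 fold change of 0.00 (95% interval -0.15 to 0.14). DERL2 had a log2 fold change of 0.11 (adjusted p = 0.334 from edgeR).

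Of the 5 stress transcription factors, 4 rose (8.93% of all genes tested did), and CEBPB and ATF3 rose the most. CEBPB (ENSG00000172216.5, chromosome 20, 50190734 to 50192689), a C/EBP factor that works with ATF4 and also in inflammatory signalling, was at 67.3 and 60.7 CPM in the sgGAL4 and at 112 and 105 CPM in the sgATG9A libraries. The increase of 69.5% was far outside the spread of the replicates (log2 fold change 0.76, SE 0.06, adjusted p = 1.48e-09 from edgeR). Of its exonic bases, 11.8% overlap another gene. ATF3, an immediate early factor downstream of ATF4 and of many other signals, had only 62 and 60 counts in the sgGAL4 and 95 and 115 in the sgATG9A libraries, or 2.77 and 2.64 CPM and 4.20 and 5.05 CPM. Its log2 fold change was 0.77 (SE 0.20, adjusted p = 0.00776 from edgeR), with an adjusted p of 0.0537 and 0.0619 without sgGAL4 replicates 1 and 2, of 0.0917 without sgATG9A replicate 2, and of 0.107 in DESeq2.

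XBP1 and ATF4, the central factors of the chaperone and the metabolic branch, rose modestly in total mRNA. XBP1 (ENSG00000100219.16, chromosome 22, 28794555 to 28800597) was at 65.0 and 66.8 CPM in the sgGAL4 and at 79.8 and 78.8 CPM in the sgATG9A libraries, an increase of 20.3% with no overlap (log2 fold change 0.27, SE 0.05, adjusted p = 0.00123 from edgeR). ATF4 (ENSG00000128272.14, chromosome 22, 39519695 to 39522685) was at 319 and 311 CPM and at 359.9 and 347 CPM, also with no overlap, an increase of 12.1% (log2 fold change 0.17, SE 0.05, adjusted p = 0.0236 from edgeR). The call of ATF4 was lost without sgGAL4 replicate 2 and without sgATG9A replicate 1 or 2 (adjusted p = 0.0749, adjusted p = 0.255 and adjusted p = 0.0855). Pseudogenes of both genes held at most 7 counts in any library. The share of spliced XBP1 and the translation of ATF4, on which both branches turn, were not measured. The stretches show the ERSE of XBP1 from -82 to -4 of the first RefSeq start listed (chr22:28800573-28800651, minus strand) and the ATF4 element of ATF3 from -221 to -154 of its first start (chr1:212565186-212565253, plus strand), in capitals. Of the XBP1 stretch 25 of 79 bases lie in an exon of a GENCODE transcript, and of the ATF3 stretch none.
XBP1: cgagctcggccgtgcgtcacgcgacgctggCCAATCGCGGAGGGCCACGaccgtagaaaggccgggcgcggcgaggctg
ATF3: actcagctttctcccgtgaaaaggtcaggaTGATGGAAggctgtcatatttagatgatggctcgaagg

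DDIT3, which encodes CHOP, the factor tied to cell death in lasting ER stress, was at 5.13 and 5.85 CPM in the sgGAL4 and at 5.92 and 7.29 CPM in the sgATG9A libraries. The lower edited library nearly met the higher control, and the log2 fold change of 0.27 did not pass (95% interval -0.06 to 0.59, adjusted p = 0.284 from edgeR). Of its exonic bases, 39.6% overlap other genes, MARS among them, and the counting did not use strand and dropped reads that overlapped more than 1 gene.

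Of the 5 effectors of the integrated stress response, 3 rose (8.93% of all genes tested did). CHAC1 (ENSG00000128965.11, chromosome 15, 40952962 to 40956519), an enzyme that degrades glutathione, was at 5.71 and 5.46 CPM in the sgGAL4 and at 9.94 and 9.05 CPM in the sgATG9A libraries, from 124 to 225 counts per library. PPP1R15A (ENSG00000087074.7, chromosome 19, 48872392 to 48876057) encodes GADD34, which directs the phosphatase that reverses eIF2 phosphorylation. Its level was 84.99 and 88.05 CPM in the sgGAL4 and 109 and 114 CPM in the sgATG9A libraries. Neither gene overlapped between the groups, and the increases were 70.0% for CHAC1 (log2 fold change 0.77, SE 0.14, adjusted p = 0.00028 from edgeR) and 28.5% for PPP1R15A (log2 fold change 0.36, SE 0.05, adjusted p = 1.96e-05 from edgeR). The ATF4 element of CHAC1, on the opposite strand, and the CRE of PPP1R15A are shown in capitals, from -220 to -191 (chr15:40953251-40953280, plus strand), within the first exon of longer GENCODE transcripts, and from -88 to -21 (chr19:48872333-48872400, plus strand), with 9 of 68 bases in an exon.
CHAC1: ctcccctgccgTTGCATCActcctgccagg
PPP1R15A: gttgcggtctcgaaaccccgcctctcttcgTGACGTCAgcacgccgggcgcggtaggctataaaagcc

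SESN2, a leucine sensor that restrains mTORC1, was at 21.3 and 16.7 CPM in the sgGAL4 and at 27.2 and 23.6 CPM in the sgATG9A libraries (log2 fold change 0.42, SE 0.10, adjusted p = 0.00704 from edgeR). Its replicates were far apart in both groups, though the groups did not overlap, and without sgGAL4 replicate 2 the log2 fold change was 0.25 (adjusted p = 0.175 from edgeR). TRIB3, a pseudokinase that is a common ATF4 and CHOP target and curbs ATF4, was at 25.3 and 25.7 CPM and at 25.5 and 22.9 CPM, with overlapping groups (log2 fold change -0.08, 95% interval -0.25 to 0.10). VLDLR, a lipoprotein receptor raised through PERK and ATF4, had a log2 fold change of 0.21 and no overlap but did not pass (adjusted p = 0.227 from edgeR).

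Of the 8 amino acid and one-carbon enzymes, 3 rose (8.93% of all genes tested did) and 5 did not pass the test. PSAT1 (ENSG00000135069.13, chromosome 9, 78297143 to 78330093), the aminotransferase of serine synthesis, was at 149 and 159 CPM in the sgGAL4 and at 194 and 197 CPM in the sgATG9A libraries, an increase of 27.2% (log2 fold change 0.35, SE 0.05, adjusted p = 5.12e-05 from edgeR). PHGDH, which catalyses the step before it, was at 226 and 247 CPM and at 243 and 251 CPM, and PSPH, which catalyses the step after it, was at 17.0 and 17.6 CPM and at 17.4 and 19.4 CPM. Both of these overlapped between the groups, with log2 fold changes of 0.06 (95% interval -0.05 to 0.17) and 0.09 (95% interval -0.11 to 0.29). The interval of PHGDH lies below that of PSAT1, 0.24 to 0.46, and no test between the genes was made. Pseudogenes of PSAT1 and PSPH had at most 1 count in any library.

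Among the mitochondrial enzymes PCK2 and ALDH1L2 rose. PCK2, the mitochondrial phosphoenolpyruvate carboxykinase, was at 101 and 89.5 CPM in the sgGAL4 and at 122 and 118 CPM in the sgATG9A libraries, an increase of 25.4% (log2 fold change 0.33, SE 0.06, adjusted p = 0.000203 from edgeR). ALDH1L2, which oxidises formyl-tetrahydrofolate to make NADPH, was at 33.9 and 31.9 CPM and at 37.6 and 43.2 CPM (log2 fold change 0.30, SE 0.08, adjusted p = 0.00921 from edgeR). Neither overlapped between the groups, and the call of ALDH1L2 was lost without sgGAL4 replicate 2 and without sgATG9A replicate 2 (adjusted p = 0.106 and adjusted p = 0.210) and in DESeq2 (adjusted p = 0.0634). SHMT2 and MTHFD2, which pass the one-carbon unit of serine to folate in mitochondria, had log2 fold changes of 0.13 and 0.14 with no overlap and adjusted p of 0.0756 and 0.0774. With the replicate number as a block both passed (adjusted p = 0.0207 and adjusted p = 0.0218 from edgeR).

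ASNS, asparagine synthetase and a classic ATF4 target, was low in these cells, with 52 and 24 counts in the sgGAL4 and 56 and 55 in the sgATG9A libraries. One control library was close to the edited pair and the other well below. The log2 fold change was 0.54 (95% interval -0.08 to 1.15, adjusted p = 0.250 from edgeR), and without sgGAL4 replicate 1 it was 1.20 (adjusted p = 0.0487). Of the exonic bases, 44.6% overlap another annotated gene, and the counting left out reads that overlapped both. How many reads this removed was not measured. Its ATF4 element is shown in capitals from -79 to -50 of its first start (chr7:97872458-97872487, minus strand), within the first exon of a longer GENCODE transcript.
ASNS: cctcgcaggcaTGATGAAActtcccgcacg

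Other genes of the same pathways, 147 in 8 lists, were counted in the same way. These lists too were chosen with earlier results of these data known. Of the 144 that were tested, 30 were higher (20.8%), where 8.93% of all genes and 11.9% of those with a mean log2 CPM above 3 were. Another 11 were lower, a share near the 7.42% of all genes, and the median log2 fold change was 0.08. Without sgGAL4 replicate 1, 15 were higher, and without sgATG9A replicate 2, 18. Of 40 other genes of ER folding, translocation and glycosylation, 10 were higher and 1 lower (median 0.08). Of these, 5 were higher without sgGAL4 replicate 1 and 6 in DESeq2, and none was lower in DESeq2 or with any 1 library left out. The 4 with the smallest p were DNAJC10, a reductase of ER disulfides (log2 fold change 0.51), SSR3 of the translocon (0.35), ERO1A, the oxidase that recharges disulfide isomerases (0.41), and the signal peptidase subunit SPCS3 (0.29). Of 21 other ERAD genes none was higher in edgeR or in DESeq2, 2 at an unadjusted p under 0.05, and 2 were lower, among them the ubiquitin-conjugating enzyme UBE2J1 (log2 fold change -0.37). ERLEC1 and SELENOS had log2 fold changes of 0.15 and 0.17 (adjusted p = 0.146 and adjusted p = 0.151 from edgeR).

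On the side of ATF4, 24 further response genes were listed. Of the 21 tested, 10 were higher (47.6%) and 2 lower (median log2 fold change 0.12). For this and the next lists, the shares of all genes tested were 8.93% higher and 7.42% lower. Only 4 were higher without sgGAL4 replicate 1, and 6 without each of the other 3 libraries and in DESeq2. None was lower without sgGAL4 replicate 1, and 1 was without sgGAL4 replicate 2, without sgATG9A replicate 1 and in DESeq2. STC2, a secreted glycoprotein hormone raised through PERK and ATF4, was at 75.0 and 74.2 CPM in the sgGAL4 and at 216 and 213 CPM in the sgATG9A libraries, or 1.53 on the log2 scale (SE 0.05, adjusted p = 6.61e-16 from edgeR). It alone of the 144 genes tested passed both limits, and its change was above that of each of the 41 members. The death receptor gene TNFRSF10B had a log2 fold change of 0.51, DDIT4, an inhibitor of mTORC1, 0.92 and the bZIP factor gene JDP2 -0.44, all past the test. Of 9 amino acid transporters 2 were higher and 2 lower. SLC7A11, the cystine transporter, was at 63.4 and 65.6 CPM and at 88.3 and 106 CPM (log2 fold change 0.59, adjusted p = 9.03e-07 from edgeR) and SLC38A1 had a log2 fold change of 0.29, while SLC38A2, an amino acid transporter induced by starvation, had -0.19 and SLC6A9 -0.73. Lower transporters numbered 1 in DESeq2, 0 without sgGAL4 replicate 2 or sgATG9A replicate 1, and 1 without either other library. Of 12 cytosolic tRNA synthetases, 3 were higher, NARS (0.29), GARS (0.23) and MARS (0.18), and none lower in edgeR, in DESeq2 or at an unadjusted p under 0.05. The fourth by p, IARS, had a log2 fold change of 0.16 (adjusted p = 0.0543 from edgeR). Without sgGAL4 replicate 1, 1 synthetase was higher.

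Upstream and parallel systems were listed too, and their counts stand beside 8.93% higher and 7.42% lower of all genes tested. Of 16 genes of eIF2, its kinases and its exchange factor eIF2B, none was higher in edgeR or in DESeq2. At an unadjusted p under 0.05 in edgeR, 3 were higher and 4 lower. The mitochondrial protease gene OMA1, whose product starts the signal from mitochondria to eIF2 kinases, was lower in edgeR (log2 fold change -0.41, adjusted p = 0.0284), though none of the 16 was in DESeq2, without either sgGAL4 library or without sgATG9A replicate 1. DELE1, the messenger cut by OMA1, the amino acid sensing kinase gene EIF2AK4 and PPP1R15B, the constitutive partner of PPP1R15A, had log2 fold changes of -0.18, -0.15 and 0.16 that did not pass in edgeR. With the replicate number as a block, 2 of the 16 were higher and 4 lower. Of 15 cytosolic heat shock genes 3 were higher, HSPH1 (0.19), HSPA4L (0.17) and HSP90AB1 (0.12), and 2 lower, HSP90AA1 (-0.24) and DNAJB1 (-0.20). One was higher in DESeq2 and without sgATG9A replicate 2, and 1 was lower without sgATG9A replicate 1. Of 10 mitochondrial chaperones and proteases 2 were higher, HSPA9 (0.17) and AFG3L2 (0.18), and SPG7 was lower (-0.19). None was higher without sgATG9A replicate 2, and 1 was in DESeq2 and without sgGAL4 replicate 1 or sgATG9A replicate 1. SPG7 was not called in DESeq2, without either sgGAL4 library or without sgATG9A replicate 2. The medians of these 3 lists were 0.02, 0.04 and 0.09.

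**Figure D4:**
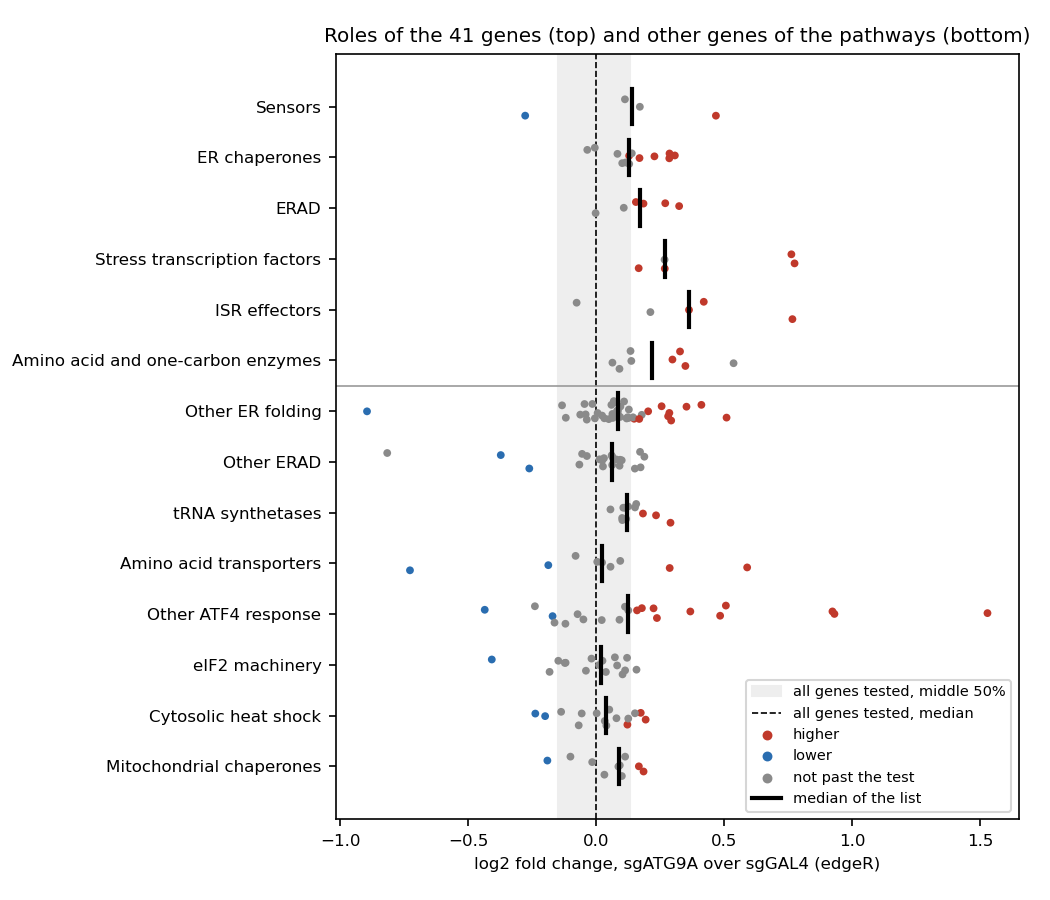
Log2 fold change, sgATG9A over sgGAL4, of each tested gene of the 6 roles (above the line) and of 8 lists of other genes in the same pathways (below), in red where higher and blue where lower at an adjusted p under 0.05, with black bars for medians, a dashed line for the median of all genes and a grey band for their middle 50%. The role medians lie between 0.13 and 0.36 and those of the other lists between 0.02 and 0.12, with STC2 alone at 1.53.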

How the data were processed

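The authors deposited raw counts per gene from bulk RNA of OVCAR-8 cells, made with cutadapt, FastQC, STAR (uniquely mapped reads, GRCh38, GENCODE v28) and featureCounts over exons, without strand and without reads that overlap several genes. The methods describe paired-end sequencing and the sample labels a 3′ end kit. The counts did not settle which was used, and levels were not tested between genes. The limit on mean log2 CPM, the summed levels and words such as low rest on these counts as they are. Names and positions came from GENCODE v29, which held 58261 of 58381 identifiers. In R 4.3.3, 16141 genes passed filterByExpr of edgeR 4.0.16, were TMM-scaled and entered its two-sided quasi-likelihood test with no covariate (Benjamini-Hochberg over all genes tested). The standard error is the log2 fold change over the root of the F statistic. Totals of 22200998 to 22969233 counts and 2 libraries per group limit the precision. Alternatives were DESeq2 1.42.0, RLE size factors, library totals only, no filter, at least 50 counts in 2 libraries, leaving out each library, and the replicate number as a block. The labels name no batch or date. The script was tested on simulated data. The 41 genes, their roles and the other lists were chosen with earlier results of these data known, so no list was tested. Every library's values are given for members past the test, for ATF4, XBP1, DDIT3, ATF3, HSPA5, EIF2AK3, ERN1 and ATF6 and for ATG9A, and up to 4 genes with the smallest p are named in each other list. Values of SDF2L1, CRELD2, DNAJB9, SYVN1, TRIB3, PHGDH, PSPH and ASNS, and further genes of a list that passed, were named after they were seen. Of the genes that this rule names in the other lists, 1 is not reported here. Single-cell counts of the series were not used here.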

Additional observations from a re-analysis of the deposited data

How the results depend on the processing

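The direction of the medians and the single lower member, CREB3L2, held under all 10 alternatives, and 8 of the 21 higher members kept their call in each of them (ERN1, HSPA5, EDEM1, XBP1, CEBPB, CHAC1, PPP1R15A and PSAT1). Without counting the fit with no filter, 12 did. With no filter, 32430 genes were tested and calls fell to 8 members, to 2 chaperones and ERAD genes, to 1 metabolic enzyme and, in the other lists, to 7 higher and 2 lower. DESeq2 called 19 higher and 6 lower in the other lists. Leaving out 1 library gave 14 to 18 members higher, 0 to 1 at both limits, 5 to 10 chaperones and ERAD genes, 2 to 4 metabolic enzymes, and 15 to 24 higher and 5 to 8 lower in the other lists. The medians without 1 library ran from 0.17 to 0.20 for members, 0.13 to 0.16 for chaperones and ERAD, 0.15 to 0.24 for metabolic enzymes and 0.068 to 0.076 for the other lists. With library totals only they were 0.16, 0.12, 0.20 and 0.065, and at 50 counts the chaperone and ERAD median was 0.13. Libraries with the same replicate number are not stated to share a batch, and their deviations correlated at 0.05 across all genes and 0.15 across abundant ones. The replicate block gave 25 members higher, with 5 metabolic enzymes, and 41 higher and 16 lower in the other lists, 2 and 4 of them among the eIF2 genes (0 and 1 without the block), and retained all 21 members. In the promoter window without the 50 bases after the start, 4 members held the ATF4 element. The cause of these shifts was not tested. Counts of 24 to 115 per library limit ASNS and ATF3.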
